A study of Mus musculus with 6 samples.

Results

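Synovial cells from arthritic knee joints of mice given an anti-Notch3 monoclonal antibody were compared with cells from arthritic joints of mice given an isotype control antibody. All cells of both single-cell libraries were taken whose mitochondrial transcripts made up at most 10% of their UMIs (unique molecular identifiers, which count captured RNA molecules). This left 3040 cells under isotype and 2068 under anti-Notch3, 5108 of the 18077 cells that passed the same limit in the 6 libraries of the study.

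The study dissected synovium from mouse knees, dissociated it with enzymes, sorted live cells and loaded them for droplet sequencing of the 3' ends of transcripts. Arthritis was induced by transfer of serum from K/BxN mice. A wild type arthritic library and a Notch3-/- arthritic library, for which the labels name no antibody, are given here beside the pair (2396 and 2656 cells), and the 2 healthy libraries were used only to define cell classes. Each treatment group is 1 library made from the pooled synovium of 10 mice, so the differences have no replicate check, no test was run, and intervals cover counting error only. The antibody clone, dose and timing and the age, sex and strain of the mice are not in the labels used. An antibody that blocks the receptor need not alter the Notch3 transcript, so the treatment label has no check in these data.

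Notch3 is a cell surface receptor of mural cells and of fibroblasts that lie near vessels. Ligands on neighbouring cells, among them endothelial Jag1 and Dll4, lead to its cleavage, and its freed intracellular part acts with the DNA-binding protein RBPJ on targets such as Hes1, Hey1 and Heyl. In the synovium, fibroblasts of the lining make lubricin and hyaluronan, and fibroblasts of the sublining carry collagens and chemokines. Serum from K/BxN mice carries autoantibodies that set off joint inflammation through immune complexes, complement and Fc receptors, and in the inflamed joint fibroblasts make proteases, acute-phase proteins and RANKL (Tnfsf11), which drives osteoclasts.

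The isotype library held 21065113 UMIs with a median of 6339 per cell, and the anti-Notch3 library held 11636998 with a median of 5107.5. The mitochondrial limit removed 151 of 3191 and 41 of 2109 barcodes, and 10 barcodes occurred in both libraries. No doublet caller was run, and 23 and 11 cells with markers of more than 1 class were kept. Isotype also stood apart from the untreated wild type library, though neither had Notch3 targeted. Of 12328 fibroblast genes, 577 (4.68%) were at least 2-fold higher and 496 (4.02%) at least 2-fold lower in wild type than in isotype. Wild type values are given below for many genes but not for all. Where none is given, how far isotype stood from wild type is not shown.

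Classes carried their defining markers: the 8 fibroblast markers summed to 60482 CPM (counts per 1000000 UMIs of the class) under isotype and 53289 under anti-Notch3 in fibroblasts, the 8 macrophage markers to 9394 and 13771 CPM in myeloid cells and the 8 endothelial markers to 5640 and 5672 CPM in endothelial cells, with none at 0. The cell mix differed between the libraries. Fibroblasts made up 68.4% of cells under isotype (95% exact binomial interval 66.7% to 70.0%) and 52.3% (50.1% to 54.5%) under anti-Notch3. Myeloid cells made up 19.6% (18.2% to 21.1%) and 38.1% (36.0% to 40.2%). Neither pair of intervals overlapped, and there were 3.48 fibroblasts per myeloid cell under isotype against 1.37 under anti-Notch3. In wild type the fibroblast share was 43.3% and the myeloid share 42.5%, so the anti-Notch3 shares lay between those of the 2 arthritic libraries without Notch3 targeting.

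Endothelial cells (7.04% and 6.19%), T and NK cells (1.94% and 1.79%) and mural cells (23 and 10 cells) had overlapping intervals. Neutrophils numbered 11 cells under isotype, 0 of 2068 under anti-Notch3, which allows a share of up to 0.145%, and 97 in wild type. Lymphatic endothelial cells numbered 17 and 0. A share depends on how many cells of each class survived dissociation and sorting, and the absolute number of cells per joint was not measured. Over all cells pooled, 1929 of 13580 genes were at least 2-fold apart between the libraries, and 1043 of these were 2-fold apart in the same direction once the 4 largest classes were given fixed weights.

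Fibroblasts were sorted into subtypes by gates, each a panel of genes named for a pair of its members. Cells were thinned to 2000 UMIs and given to the panel with the most genes detected, with at least 2 required, and the 58 and 41 fibroblasts with fewer UMIs were left out. The H19-Cthrc1 gate, whose panel holds the imprinted growth genes H19, Igf2 and Dlk1, held 17.0% of fibroblasts under isotype (344 cells, 15.4% to 18.7%) and 6.24% under anti-Notch3 (65 cells, 4.85% to 7.89%). Wild type stood at 6.27%, close to anti-Notch3.

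Of the sublining gates, Myoc-Dkk2 and Pi16-Dpp4 held larger shares under anti-Notch3. The Myoc-Dkk2 gate held 4.65% of fibroblasts under isotype and 15.9% under anti-Notch3, against 6.27% in wild type. The Pi16-Dpp4 gate, which marks fibroblasts of the adventitial kind, held 6.73% and 15.4%, against 10.48% in wild type. Both gates had intervals that did not overlap between isotype and anti-Notch3, and in both the wild type share lay between.

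The Clic5-Tspan15 gate, which marks the lining, held 18.4% and 19.6%. Shares of the Sfrp4-Fbln7 gate (14.9% and 13.9%) and the Smoc2-Col15a1 gate (2.18% and 2.98%) also overlapped in their intervals. The gate of tendon genes (Chad-Tnmd) held 106 and 11 cells and that of fibrocartilage genes (Tnn-Acan) 84 and 1, and how much tendon or cartilage came with each dissection was not tested. Ungated fibroblasts made up 24.1% and 23.0%, and 70.0% and 62.9% of fibroblasts had 1 or 2 genes of their best panel, next to the gate's limit.

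**Figure D1:**
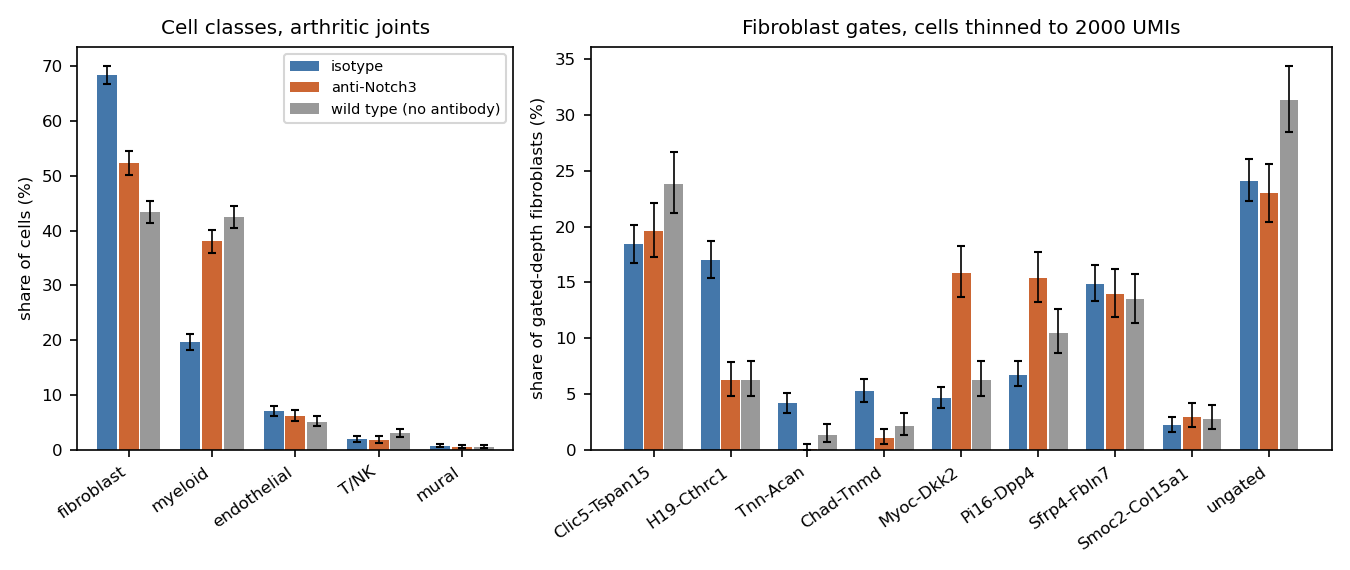
Left, share of all cells (%) in 5 classes in the isotype, anti-Notch3 and wild type arthritic libraries; right, share of fibroblasts with at least 2000 UMIs (%) in each gate. Bars are 1 library each and whiskers are 95% exact binomial intervals; the fibroblast share was 68.4% under isotype and 52.3% under anti-Notch3, and the H19-Cthrc1 gate 17.0% and 6.24%.

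Clustering on 2000 variable genes drew the line elsewhere. A fibroblast cluster with Saa3, Slpi, Cxcl5 and Hp as leading genes held 558 cells under isotype (26.8% of fibroblasts), 26 under anti-Notch3 (2.40%), 456 in wild type (43.9%) and 7 in the knockout. No gate panel holds an acute-phase gene, and how the cells of this cluster fell over the gates was not counted. A cluster led by Mfap4, Cthrc1, H19 and Postn held 48.7% of isotype fibroblasts, 21.8% under anti-Notch3 and 18.3% in wild type.

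To separate the mix of subtypes from changes within them, levels were compared in 2 ways. Counts were first summed over all fibroblasts and scaled to CPM. The CPM of each gate was then weighted by the isotype share of that gate, so that both libraries had 1 fixed mix. Ungated cells counted as a stratum of their own, and the 7 strata compared held 87.3% of isotype and 97.1% of anti-Notch3 fibroblast UMIs. A gene was called when its log2 ratio of CPM (pseudocount 0.5 UMIs) was at least 2-fold and it had at least 20 UMIs over the pair.

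Of 12301 fibroblast genes, 594 (4.83%) were higher and 684 (5.56%) lower under anti-Notch3. At the fixed mix 522 (4.24%) were higher and 610 (4.96%) lower. Of the genes first called, 447 of 594 higher (75.3%) and 507 of 684 lower (74.1%) were also called at the fixed mix. Calls 2-fold the same way in each of the 6 gates with at least 30 cells in both libraries came to 14 higher and 31 lower. The median gene had a log2 ratio of -0.06.

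**Figure D2:**
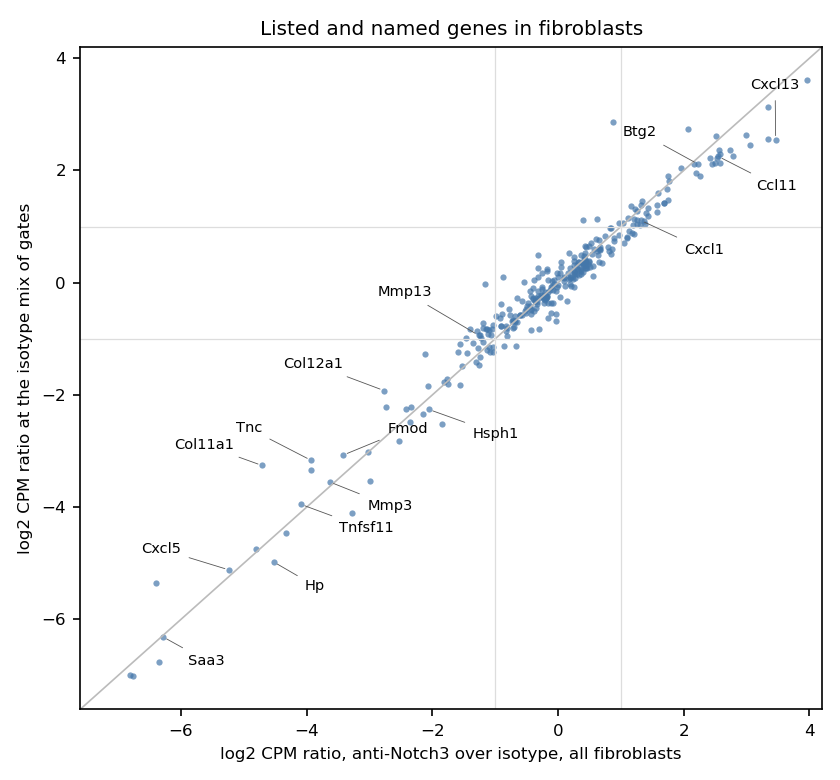
Each point is 1 of 314 listed or named genes in fibroblasts; the horizontal axis is the log2 ratio of CPM, anti-Notch3 over isotype, over all fibroblasts, and the vertical axis the same ratio at the isotype mix of gates. Grey lines mark 2-fold and equality; Saa3 (-6.29 and -6.31) lay on the diagonal, while Col11a1 (-4.71 and -3.26) and Col12a1 (-2.77 and -1.92) lay nearer to 0 at the fixed mix.

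Acute-phase genes had the lowest median ratio of the 34 gene lists in fibroblasts. Saa3, a serum amyloid A protein made locally by inflamed stroma, lies at chr7:46711998-46715700 on the minus strand (GRCm38). It stood at 663 CPM (95% exact Poisson interval 651 to 676) under isotype and at 8.42 CPM (6.41 to 10.9) under anti-Notch3. It stood at 1474 CPM in wild type and 7.23 CPM in the knockout, so that isotype and wild type were high and the libraries with Notch3 targeted were low. The log2 ratio was -6.29 (interval -6.69 to -5.93), 78.1-fold lower under anti-Notch3.

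Mmp3 (stromelysin-1), which degrades proteoglycan and activates other matrix metalloproteinases, lies at chr9:7445822-7455975 on the plus strand. Its level was 902 CPM (887 to 916) under isotype and 72.5 CPM (66.4 to 79.1) under anti-Notch3, against 1217 CPM in wild type and 65.3 CPM in the knockout. The log2 ratio was -3.63, and isotype and wild type were again above anti-Notch3 and the knockout. Saa3 and Mmp3 were picked out for their low ratios by gate in this pair, so isotype above anti-Notch3 follows from that choice. Promoters are shown for Saa3 and Mmp3, which are among the genes at least 2-fold lower in every gate; Hp and Cxcl5 are named only. Each run is the 200 bases before the RefSeq start on the gene's strand (GRCm38.p6), at chr7:46715677-46715876 and chr9:7445622-7445821, with motif matches in capitals. The last 24 bases of the Saa3 run lie inside the gene as GENCODE places it.
Saa3: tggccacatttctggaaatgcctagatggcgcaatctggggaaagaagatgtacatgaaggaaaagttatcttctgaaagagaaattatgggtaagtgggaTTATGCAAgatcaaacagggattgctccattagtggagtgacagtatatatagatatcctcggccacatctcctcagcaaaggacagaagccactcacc
Mmp3: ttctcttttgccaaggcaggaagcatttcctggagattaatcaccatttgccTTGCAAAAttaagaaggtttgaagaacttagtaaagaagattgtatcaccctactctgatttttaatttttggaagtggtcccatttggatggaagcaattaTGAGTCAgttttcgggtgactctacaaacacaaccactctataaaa
The matches are a C/EBP motif (TTGCNNAA) 99 bases before the start of Saa3 and 148 before that of Mmp3, and an AP-1 motif (TGANTCA) 46 bases before that of Mmp3. C/EBP and AP-1 are families of factors known from inflammatory transcription. Searched on both strands in windows of this length, C/EBP letters occur in 7.47% of 27025 promoters and AP-1 letters in 5.55%. RBPJ letters (TGGGAA, in 17.3% of promoters) were not in these windows. A match is a description of letters and not a binding site.

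Saa3 was low under anti-Notch3 in gates of every kind. In the lining gate (Clic5-Tspan15) the Saa3 level was 328 CPM under isotype and 10.3 CPM under anti-Notch3. In the Sfrp4-Fbln7 gate Saa3 was 1114 and 12.8 CPM, and in the Pi16-Dpp4 gate 666 and 1.05 CPM. Each of the 6 gates was at least 2-fold lower, the smallest log2 ratio being -3.98, and the log2 ratio at the fixed mix was -6.31.

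Few cells carried Saa3 in either library. A Saa3 UMI was seen in 18.5% of isotype fibroblasts (385 of 2079) and 1.57% of anti-Notch3 fibroblasts (17 of 1082). After thinning to 2000 UMIs the shares were 9.80% and 0.865%. In T and NK cells, which are not known to make it, a Saa3 UMI was seen in 6.78% of isotype cells (4 of 59) and 0 of 37 anti-Notch3 cells. After thinning these shares were 3.85% and 0 of 25 (upper limit 13.7%), with median depths of 1946 and 2388 UMIs against 7666 and 6016.5 in fibroblasts. The fibroblast share under anti-Notch3 therefore cannot be told apart from a background share. In myeloid cells the share was 6.20% and 0.381% (3.81% and 0.274% after thinning), with median depths of 3570 and 4606 UMIs. Among fibroblasts, the 5 highest cells held 72.9% of the Saa3 UMIs under anti-Notch3 and 24.4% under isotype.

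How much of this is subtype mix depends on how subtypes are drawn. Where fibroblasts were split by clusters made without the listed genes, a subcluster with the same leading genes held 358 isotype cells and 4 anti-Notch3 cells, too few to compare. The 6 subclusters that could be compared held 72.9% of isotype and 71.6% of anti-Notch3 fibroblast UMIs, so values at this mix leave out the rest. In these 6 the fixed-mix log2 ratio of Saa3 was -2.25, that of Hp -2.62 and that of Mmp3 -2.38. Cxcl5 moved from -5.12 to -0.88, Slpi from -1.81 to -0.28, Lox from -1.24 to -0.40, Mmp19 from -1.32 to -0.90 and Timp1 from -1.48 to 0.01, so the call of each was lost. By gates the Saa3 difference lay almost wholly within subtypes (99.7% of it), and by subclusters much of it lay in a set of cells that anti-Notch3 lacked; a cell state and a subtype cannot be told apart here.

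Among the other acute-phase genes Hp, which encodes haptoglobin, stood at 1110 CPM under isotype, 48.1 under anti-Notch3 and 1006 in wild type. Its log2 ratio was -4.53 and was smallest in the Myoc-Dkk2 gate (-0.77). Slpi, an inhibitor of leukocyte proteases, stood at 328, 97.2 and 731 CPM, with 54.6% of the anti-Notch3 UMIs in 5 cells. Lcn2, a siderophore-binding protein, was at 22.7 and 22.1 CPM and the pentraxin Ptx3 at 84.1 and 90.5 CPM, so not all of the list was lower. Of its 7 tested members 5 were lower and 0 higher (median log2 ratio -3.03, against -0.06 over all genes).

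Chemokines that attract neutrophils split. Cxcl5 was 88.9 CPM under isotype, 2.28 under anti-Notch3 and 237 in wild type, lower in every gate, with a log2 ratio of -5.24. Cxcl3 had no UMI in anti-Notch3 fibroblasts and 7.96 CPM under isotype, at least 18.6-fold lower against a floor of 3 UMIs over the class. Cxcl1 went the other way, at 716 CPM under isotype, 1781 under anti-Notch3 and 1478 in wild type (log2 ratio 1.31). In the lining gate, though, the Cxcl1 ratio was -0.81, with 337 and 192 CPM. At the fixed mix of gates the Cxcl1 ratio was 1.11, with subclusters in place of gates it was 0.54, and with gating at full depth, at 3000 UMIs or by 1 panel gene it was 0.80 to 0.96, so its call depended on how subtypes were drawn.

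Csf1, a growth factor, and 3 of 5 sublining chemokines were higher under anti-Notch3. Csf1, which sustains macrophages, was 37.6 CPM under isotype, 121 under anti-Notch3 and 65.0 in wild type, above isotype in each of the 6 gates. Ccl11 (eotaxin) was 15.8, 92.5 and 50.1 CPM, with a log2 ratio of 2.55 over all fibroblasts, 2.25 at the fixed mix of gates and 0.89, under 2-fold, at that of subclusters. Cxcl13, which attracts B cells, was 6.49, 71.8 and 17.4 CPM, with a log2 ratio of 3.46 over all fibroblasts, 2.55 at the fixed mix of gates and 0.74 at that of subclusters. A subcluster led by Ccl11 (27 isotype and 73 anti-Notch3 cells) had too few isotype cells to enter that mix. So did another with Cxcl13 and Ccl11 among its leading genes (1 and 11 cells). How far their absence lowered the subcluster ratios was not tested.

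For Csf1, Ccl11 and Cxcl13 the anti-Notch3 level was the highest of isotype, anti-Notch3 and wild type, with wild type between. Sublining chemokines had 3 of 5 members higher and 0 lower (median 1.57, and 1.26 at the fixed mix). Summed over the 5 members, though, levels were 1952 CPM under isotype, 2599 under anti-Notch3 and 4434 in wild type, so wild type was highest. Ccl19 had a log2 ratio of 1.26 at the fixed mix of gates and 0.38, under 2-fold, at that of subclusters. Monocyte chemokines and growth factors had 2 of 6 higher and 0 lower (median 0.71). Il6 was 59.7, 157 and 107 CPM, a log2 ratio of 1.39 over all fibroblasts with -0.92 in the lining gate and 2.24 in the H19-Cthrc1 gate. At the fixed mix Il6 was 1.24 by gates and 0.32 by subclusters.

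Matrix proteases did not move as a block: of 13 tested, 3 were higher and 5 lower (median -0.32). Mmp2, a gelatinase, was 1897 CPM under isotype, 695 under anti-Notch3 and 1161 in wild type, and was at least 2-fold lower in each gate. Mmp19 was 52.3, 22.1 and 55.4 CPM, also 2-fold lower in each gate. Mmp13, a collagenase that cleaves the collagen of cartilage, was 295, 123 and 288 CPM, but 5 cells held 81.3% of its anti-Notch3 UMIs.

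Left without its 5 highest cells in each library, Mmp13 had a log2 ratio of -3.37 in place of -1.26. With all cells in, the Mmp13 ratio at the fixed mix of gates was -0.94, under 2-fold. It was -0.34 to -0.19 with gating at 3000 UMIs, at full depth or by 1 panel gene, and 1.08, of the opposite sign, with subclusters in place of gates. Mmp11 was higher under anti-Notch3, at 25.96 and 87.1 CPM. So was the aggrecanase Adamts5, at 121 and 315 CPM, though its log2 ratio was 1.11 at the fixed mix of gates and 0.86 at that of subclusters. Timp1, which inhibits metalloproteinases, was 978, 340 and 1252 CPM (log2 ratio -1.52), and Timp3, which binds to matrix, was 78.6, 181 and 95.8 CPM (1.21). The Timp3 ratio was 0.87 at the fixed mix of gates and -0.54 at that of subclusters.

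Tnfsf11 (RANKL; chr14:78277445-78308043, minus strand) was low in absolute level and fell in all gates. It stood at 28.0 CPM under isotype, 1.57 (0.784 to 2.81) under anti-Notch3, 30.3 in wild type and 0.613 in the knockout. The log2 ratio was -4.09 over all fibroblasts, -3.95 at the fixed mix of gates and -3.71 at the fixed mix of subclusters. In 4 of the 6 gates no Tnfsf11 UMI was left under anti-Notch3, so the ratios of single gates rest on the pseudocount. Its decoy receptor Tnfrsf11b (osteoprotegerin) was 9.79 and 9.56 CPM.

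Collagens and other fibrous matrix genes were lower: 11 of 18 were called lower and 0 higher over all fibroblasts (median -1.08), and 4 lower and 0 higher at the fixed mix (median -0.82). A count of 11 of the 18 were below isotype in each of the 6 gates, which 7.24% of all tested genes were. Col1a1, the main chain of type I collagen, was 9621 CPM under isotype, 3251 under anti-Notch3 and 6919 in wild type. Its log2 ratio was -1.57 over all fibroblasts and -1.10 at the fixed mix, and within gates it ran from -1.65 (Myoc-Dkk2) to -0.79 (H19-Cthrc1). Col3a1 was 14499 and 6972 CPM.

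Part of the matrix difference followed the mix of gates. Col12a1, which lies on the surface of fibrils, was 240 CPM under isotype, 35.1 under anti-Notch3 and 64.6 in wild type, with a log2 ratio of -2.77 that was -1.92 at the fixed mix. Col11a1 was 99.1, 3.71 and 12.1 CPM, and wild type was nearer to anti-Notch3 than to isotype for both. Fmod (fibromodulin) was 554, 51.8 and 47.7 CPM, and changes within gates gave 35.8% of its difference. Postn (periostin) had a log2 ratio of -0.54 and of 0.02 at the fixed mix, which was -0.52 with anti-Notch3 gate weights and -0.54 with at least 3 panel genes.

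Tnc (tenascin-C), a matrix protein of injured tissue, was 239 CPM under isotype, 15.6 under anti-Notch3 and 164 in wild type (log2 ratio -3.93, and -3.17 at the fixed mix). Lox, which cross-links collagen, was 426, 141 and 653 CPM. Fn1 (fibronectin) was 6728 and 7849 CPM, under 2-fold apart. Endoplasmic reticulum folding genes, which serve collagen secretion, had 0 of 11 called in either direction, with 5 of 11 below isotype in every gate and a median of -0.34.

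Lining genes gave a different pattern by gate. Prg4 (lubricin) was 13417 CPM under isotype, 23546 under anti-Notch3 and 11496 in wild type, a log2 ratio of 0.81. Within gates the Prg4 ratio was 0.73 in the lining gate, where its level was 54717 and 90443 CPM, and -2.50 in the H19-Cthrc1 gate, where it was 1021 and 180 CPM. Has1, a hyaluronan synthase, was 313, 683 and 586 CPM (log2 ratio 1.13, and 0.92 at the fixed mix).

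**Figure D3:**
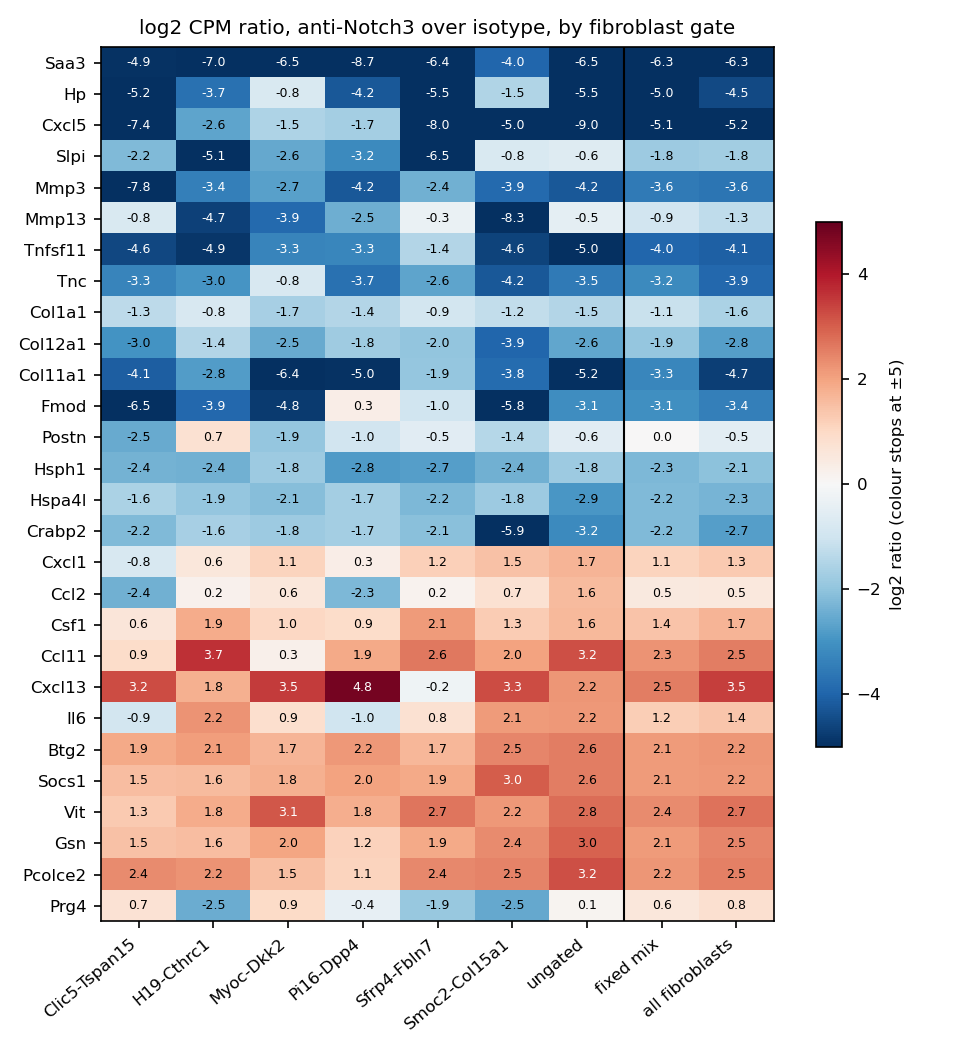
Colours and printed values are log2 ratios of CPM, anti-Notch3 over isotype, for 28 genes (rows) in 6 fibroblast gates, ungated cells, the fixed mix and all fibroblasts (columns); values with no UMI on a side rest on the pseudocount. Saa3, Mmp3 and Tnfsf11 are below 0 in every column and Btg2, Socs1, Vit, Gsn and Pcolce2 above 0 in every column, while Cxcl1, Il6 and Prg4 differ in sign between gates.

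Canonical Notch genes in fibroblasts gave little signal. Hes1 was 81.5 CPM under isotype and 92.9 under anti-Notch3, under 2-fold apart. Hey1 was 1.47 and 1.43 CPM, and Heyl 7 and 1 UMIs. Of the Notch targets 1 of 4 was higher (Lfng, 0.857 and 1.998 CPM) and 0 lower, and of the receptors and ligands 0 of 5 were called. Notch3 (chr17:32120820-32166852, minus strand) itself was 1.65 (1.09 to 2.41) and 1.28 CPM (0.588 to 2.44) in fibroblasts, overlapping.

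Several genes higher under anti-Notch3 were higher in every gate. Gsn (gelsolin), which severs actin filaments, was 2477 CPM under isotype, 13570 under anti-Notch3 and 5738 in wild type. Btg2, an anti-proliferative early-response gene, was 224, 1046 and 960 CPM, and Socs1, an inhibitor of cytokine signalling, 21.4, 96.1 and 74.8 CPM. Pcolce2, which enhances procollagen processing, was 93.2, 539 and 191 CPM, and Vit (vitrin) 8.999, 59.8 and 24.6 CPM. For Btg2 and Socs1 wild type was close to anti-Notch3, and for Gsn, Pcolce2 and Vit it was nearer to isotype.

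Also 2-fold higher in every gate were Adm (13.5 and 64.4 CPM), which encodes adrenomedullin, and Smpd3 (4.04 and 28.0 CPM), along with Hrct1, Gldn and Ttc21a. Among the genes with the largest ratios were Sult1e1 (1.41 and 11.9 CPM), an oestrogen sulfotransferase, Serpina3m (2.14 and 17.1), Edn1 (2.08 and 12.6), Amy1 (3.18 and 19.1) and Akap12 (3.86 and 23.0). All of these were low in absolute level under isotype. At the fixed mix of subclusters the log2 ratio of Gsn was 0.97, Vit 0.90, Gldn 0.81, Amy1 0.55 and Adm 0.32, each under 2-fold, and that of Sult1e1 was -0.55, against 2.46 at the fixed mix of gates. None of these genes is in a list, so they were not kept out of that clustering and the ratios are no independent check. Subclusters with Sult1e1 (1 isotype and 11 anti-Notch3 cells) or Gldn (13 and 71) among their leading genes were too small to enter the mix. Beside Saa3, Saa1, Cxcl5, Hp, Col11a1, Tnfsf11 and Tnc, the largest ratios downward were those of Kcnj15 (18.1 CPM and 1 UMI, log2 ratio -6.41, interval -12.30 to -4.50), Olfr810 (23.3 CPM and 1 UMI, -6.77, -12.66 to -4.86) and the muscle growth inhibitor Mstn (29.0 CPM and 2 UMIs, -6.35, -9.72 to -4.81).

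Wild type did not side with isotype for each of these. Mstn was 1.43 CPM in wild type, near anti-Notch3, while Olfr810 was 29.3 CPM and Kcnj15 7.71 CPM. Mylk (myosin light chain kinase), 2-fold lower in every gate, was 24.4 CPM under isotype, 4.71 under anti-Notch3 and 27.7 in wild type. Saa1 was 27.4 and 1.28 CPM, with 79.4% of its isotype UMIs in 5 cells.

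A set of heat-shock genes was high in isotype alone. Hsph1 was 224 CPM under isotype, 53.8 under anti-Notch3, 56.1 in wild type and 29.5 in the knockout. Hspa1b was 221, 49.8, 29.6 and 15.3 CPM, and Hspa4l 82.7, 16.3, 17.4 and 11.4 CPM. The isotype library stood above the 3 other arthritic libraries for each, and the same held for Hspa1a (1834, 765, 290 and 421 CPM), for Crabp2 (183, 27.3, 52.4 and 13.9) and for Ccnb1ip1 (162, 30.3, 57.4 and 13.2). The heat-shock genes among these, Hsph1, Hspa1a, Hspa1b and Hspa4l, also respond to heat and tissue handling. The part of handling in any gene above was not tested.

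The early-response genes Fos and Junb ran the other way. Fos was 3860 CPM under isotype and 7154 under anti-Notch3, under 2-fold apart, and 5439 in wild type. Junb was 1092, 2622 and 2062 CPM. The Junb ratio was 1.12 at the fixed mix of gates and 0.56 at that of subclusters. Of 16 stress and dissociation genes, 3 were higher and 2 lower (median 0.40), and 8 of 16 were above isotype in every gate, which 4.71% of all tested genes were. Another 3 of 16 were below isotype in every gate, against 7.24% of all tested genes, so the list split. Immune genes of fibroblasts were given by list. Over all tested fibroblast genes 4.83% were higher and 5.56% lower. Interferon-response genes had 4 of 18 higher and 1 lower. Their median of -0.06 equalled that of all genes, though the share called higher was above that of all genes. In every gate 3 of 18 were above isotype and 1 below. MHC class II genes had 4 of 6 higher and 0 lower (median 1.13), but levels were low (Cd74 13.0 and 39.3 CPM) and 5 cells held 61.5% of the anti-Notch3 Cd74 UMIs. Complement genes had 3 of 11 higher and 0 lower, among them C4b at 184 and 479 CPM (log2 ratio 1.05 at the fixed mix of gates and 0.13 at that of subclusters), while C3 was 336 and 493 CPM. Glycolysis and hypoxia genes had 0 of 10 higher and 2 lower.

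In myeloid cells 256 of 9508 genes (2.69%) were higher and 511 (5.37%) lower under anti-Notch3, and at a fixed mix of gates 353 (3.71%) were higher and 603 (6.34%) lower. The median myeloid gene stood at -0.15; scaling by median of ratios moved it to 0.01 and gave 393 higher and 357 lower, so the surplus of lower calls depended on scaling. The Trem2-Gpnmb gate, which marks lipid-handling macrophages, held 55.7% of myeloid cells under isotype and 31.1% under anti-Notch3, against 30.8% in wild type, close to anti-Notch3. The Ly6c2-Plac8 gate of monocytes held 10.2% and 2.05%, against 35.8% in wild type.

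The Lyve1-Vsig4 gate of resident macrophages held 11.9% (9.09% to 15.1%) and 16.6% (13.9% to 19.5%), overlapping, and the Cd209a-Mgl2 gate 4.66% (2.94% to 6.97%) and 10.3% (8.17% to 12.7%), not overlapping. Of myeloid cells 55.3% and 69.3% had 1 or 2 genes of their best panel, next to the gate's limit, and 125 and 57 cells under 2000 UMIs were left out. Ungated myeloid cells made up 15.7% under isotype and 38.9% under anti-Notch3 (74 and 284 cells). Of these, 59.5% and 70.4% lay in 1 cluster, which had Ms4a7, Apoe and Trem2 as leading genes. That cluster held 66.3% of myeloid cells under isotype, 55.0% under anti-Notch3 and 49.0% in wild type. The pair was thus less far apart by this cluster than by the Trem2-Gpnmb gate. A fixed mix could use 3 strata, with 83.5% and 83.9% of the UMIs.

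Osteoclast genes were lower in myeloid cells under anti-Notch3. Acp5 (TRAP) was 416 CPM under isotype, 43.9 under anti-Notch3 and 256 in wild type, and Ctsk (cathepsin K), which digests bone collagen, was 279, 14.5 and 217 CPM. Of the bone-resorption list 3 of 5 were lower and 0 higher. Few cells carried these counts: 5 isotype cells held 67.0% of the Acp5 UMIs, 62.6% of the Ctsk UMIs and 96.1% of the Mmp9 UMIs. Left without the 5 highest cells of each library, Acp5 had a log2 ratio of -1.99 in place of -3.24 and Ctsk -3.76 in place of -4.25. Mmp9 was 97.1 and 1.32 CPM with all cells in.

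Among the other large ratios downward, Ifitm1, an interferon-induced membrane protein, was 276 CPM under isotype, 6.87 under anti-Notch3 and 786 in wild type. Arg1 (arginase 1), known from alternative activation and wound macrophages, was 48.8, 1.32 and 63.3 CPM, and Bdh2 48.8, 1.59 and 36.5 CPM. In Trem2-Gpnmb cells alone Ifitm1 had a log2 ratio of -3.72, Arg1 of -4.02 and Bdh2 of -4.16. The cytokine Il1b was 373 and 430 CPM and Tnf 41.1 and 53.1 CPM, both under 2-fold apart.

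MHC class II genes were higher, 6 of 7 called higher and 0 lower (median 1.21, and 0.94 at the fixed mix, where 3 were called). Cd74, the invariant chain, was 8331 CPM under isotype, 20089 under anti-Notch3 and 17959 in wild type, and H2-Aa 3137, 7612 and 6692 CPM. Isotype was the low library for both. The log2 ratio of H2-Aa was 1.74 in Trem2-Gpnmb cells and 0.04 in Lyve1-Vsig4 cells. An H2-Aa UMI was seen in 34.2% of isotype and 64.7% of anti-Notch3 myeloid cells (32.2% and 62.1% after thinning), against 5.39% and 9.61% of fibroblasts.

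Clec4b1, a C-type lectin of myeloid cells, was 30.5 CPM under isotype, 297 under anti-Notch3 and 27.5 in wild type. It was seen in 6.70% and 42.9% of myeloid cells (4.24% and 32.1% after thinning) and stood at 0.367 and 1.14 CPM in fibroblasts, so it was spread over many cells. Fcgr4, an activating Fc receptor for IgG, was 28.4, 103 and 50.7 CPM, and Lpl (lipoprotein lipase) 118, 405 and 44.6 CPM. Cd300e (1.696 and 25.9 CPM), Ear2 (4.66 and 57.3), Cd209f (2.97 and 28.0), Sirpb1a (2.97 and 25.9) and Fam26f (4.66 and 36.7) were low in isotype.

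Further genes of the largest myeloid ratios were Cd79b (3.39 and 25.4 CPM), Cadm1 (6.36 and 27.2) and AC127341.3 (4.24 and 29.1). Retnla was 163 and 879 CPM and 1.61 in wild type, but 5 cells held 98.4% of its isotype and 73.2% of its anti-Notch3 UMIs. Apoe was 13375 and 19207 CPM and C1qa, a complement component of macrophages, 2764 and 4000 CPM, both under 2-fold apart. Hspb1, a heat-shock gene, was 464 CPM under isotype, 75.8 under anti-Notch3 and 18.1 in wild type.

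Fibroblast markers counted in myeloid cells moved with these values. A panel of 8 fibroblast markers summed to 2083 CPM in isotype and 1016 CPM in anti-Notch3 myeloid cells, with none of the 8 at 0 in either, and Saa3 was 27.6 and 4.23 CPM and Mmp3 23.3 and 1.06 CPM there. Lower myeloid levels of Hp (95.4 and 5.28 CPM), Timp1 (66.2 and 11.4) and Mgp (104 and 11.4), which fibroblasts make, came with it. The part of free RNA or doublets in those genes was not tested.

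Endothelial cells numbered 214 and 128, and 431 of 6990 genes (6.17%) were higher and 558 (7.98%) lower under anti-Notch3. Gating left out 46 and 38 cells under 2000 UMIs, so gate shares are of 168 and 90 cells. The capillary gate (Rgcc-Gpihbp1) held 19.05% and 40%, not overlapping, and the venous gate (Selp-Ackr1) 45.8% and 34.4%, overlapping. Ungated cells made up 25.6% and 10.0%, not overlapping. Gated at full depth with all cells in, the capillary share was 30.8% and 52.3%. Only the venous and capillary gates had 30 cells in both libraries, so ratios by gate are given for these alone. At the fixed mix of these gates 517 of 6990 genes were higher and 897 lower. Where no gate is named, endothelial values below are over the whole class, so mix and change within gates are not separated.

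The largest endothelial ratio downward was that of Apln (apelin), a ligand made by endothelial tip cells. It was 99.7 CPM (81.2 to 121) under isotype and 147 in wild type, with 1 UMI under anti-Notch3 (log2 ratio -4.74, interval -10.63 to -2.81). Col18a1, a basement membrane collagen that contains endostatin, was 471, 67.5 and 574 CPM in isotype, anti-Notch3 and wild type, and its log2 ratio was -2.51 in venous and -3.72 in capillary cells. The membrane-bound protease Mmp14 was 144, 10.0 and 135 CPM. Wild type stood near isotype for all of these.

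Serpinb1a (213, 25.0 and 293 CPM), Tgfbi (207, 27.5 and 190), Akr1b8 (104, 7.50 and 171) and Bpgm (117, 17.5 and 142) had the same order, and Fam167b and Ehd3 were also among the lowest ratios. Hspa4l, at 98.7, 10.0 and 19.5 CPM, was high in isotype alone, as in fibroblasts. Higher in endothelial cells under anti-Notch3 were Apoe (304, 1581 and 232 CPM), the cysteine protease inhibitor Cst3 (888, 4396 and 709) and Timp4 (50.9, 365 and 12.5). Timp4 is a leading gene of an endothelial cluster that held 31.8% of the class under isotype, 67.2% under anti-Notch3 and 22.8% in wild type.

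Lpl, with 33.9, 308 and 12.5 CPM, was higher in capillary cells (log2 ratio 5.57) but not in venous cells (-0.61). Sult1a1 (30.9 and 233 CPM), Gadd45b (41.9 and 233) and Gstm1 (33.9 and 165) were higher in both. An Apoe UMI was seen in 42.1% and 77.3% of endothelial cells (25.6% and 74.4% after thinning), and in fibroblasts in 52.9% and 57.1%. Apoe and Cst3 are also abundant in macrophages, whose share was larger under anti-Notch3, and the part of their free RNA was not tested; the 8 macrophage markers summed to 31.9 and 92.5 CPM in endothelial cells.

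Some large endothelial ratios rested on few cells. Under anti-Notch3 5 cells held 96.0% of the Cd74 UMIs (6.98 and 443 CPM), all of the Acta2 UMIs (34.9 and 283 CPM) and 83.4% of the Lyz2 UMIs (61.8 and 468 CPM), genes of antigen-presenting, mural and myeloid cells. Lymphatic markers summed to 535 and 42.5 CPM in the class. Of the Notch targets 2 of 5 were higher, Hey1 (18.0 and 37.5 CPM, overlapping intervals) and Lfng (23.9 and 67.5 CPM), and 0 lower, and the ligand Dll4 was 47.9 and 45.0 CPM.

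**Figure D4:**
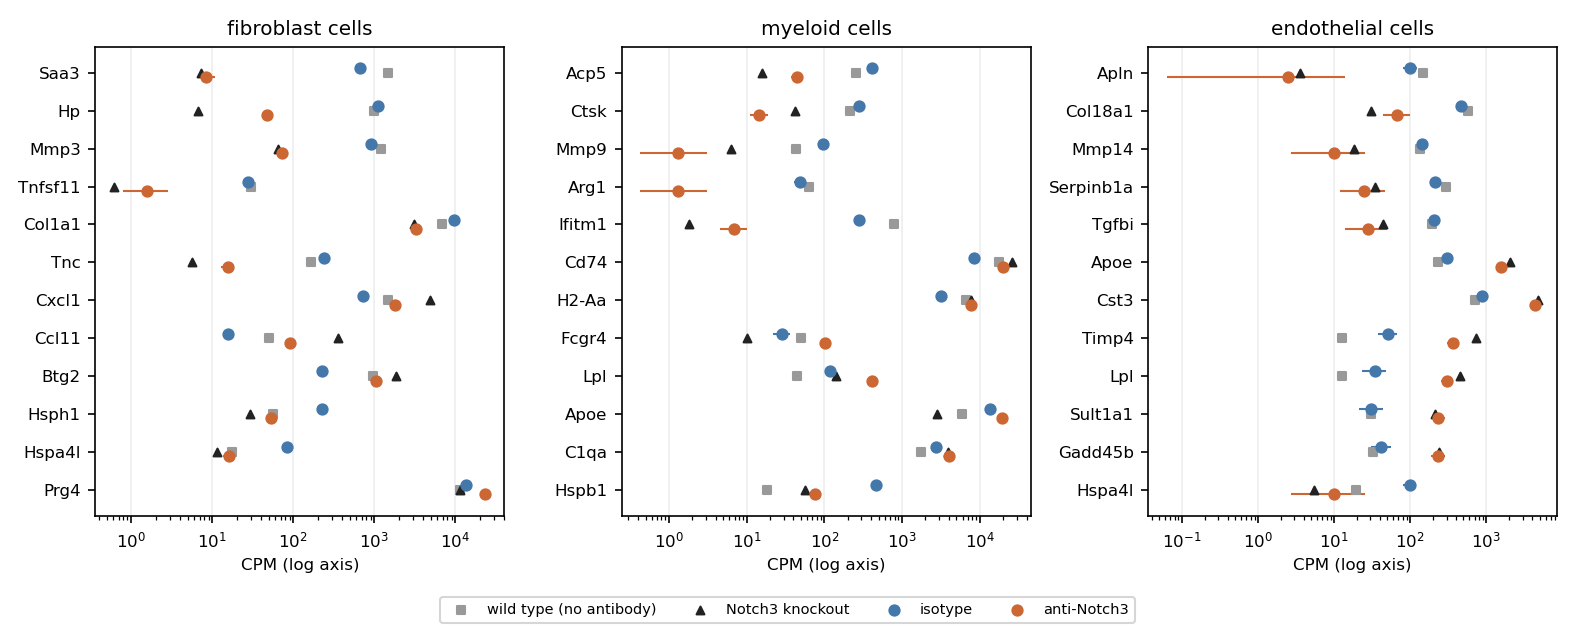
Levels (CPM, log axis) of 12 genes each in fibroblasts, myeloid and endothelial cells, with blue and orange circles for isotype and anti-Notch3, grey squares for wild type and black triangles for the knockout; whiskers on the circles are 95% exact Poisson intervals. Saa3, Mmp3 and Tnfsf11 are high in isotype and wild type and low in the other libraries, whereas Hsph1 and Hspa4l are high in isotype only and Btg2 low in isotype only.

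Mural cells, the cells with the most Notch3, were too few to compare: 23 under isotype and 10 under anti-Notch3. Notch3 was 324 CPM there (217 to 466, 29 UMIs) under isotype and 234 CPM (85.9 to 510, 6 UMIs) under anti-Notch3, overlapping, against 421 in wild type and 28.0 in the knockout. Heyl, its known target in these cells, had 8 and 0 UMIs, and 0 of this total allows up to 117 CPM against 89.4 measured under isotype, so a difference was not detectable at this depth. The pericyte gene Rgs5 was 7132 and 937 CPM and Acta2, of smooth muscle, 1778 and 3434 CPM.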

How the data were processed

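The authors deposited 1 matrix of unnormalized UMI counts per library; Cell Ranger 3.0.2 and mm10 are named per the submitters' processing notes, and the labels' protocols give 10 pooled mice and 7000 loaded cells. Cells with over 10% mitochondrial UMIs were dropped here. All 6 libraries were clustered jointly (scanpy 1.11.5, leidenalg 0.10.2, 2000 variable genes, 30 components, 20 neighbours, resolution 1), and clusters were named from 23 marker panels by a scoring rule chosen after the data were seen. No doublet caller was run. Gates, fixed mixes, CPM with exact Poisson and shares with Clopper-Pearson intervals (95%) were computed with numpy 2.4.6 and scipy 1.17.1. Genes were called at 2-fold among those with at least 20 UMIs over the pair. Genes named are members of 34 lists, and per class and direction the 10 largest ratios among genes with at least 100 UMIs and 10 CPM, and for fibroblasts the 10 largest in every gate, leaving out predicted, ribosomal, sex-linked and gate-panel genes. The cell class comparison, members and lists were chosen with earlier results of these data known. The fixed-mix method was tested on simulated data. There the gates were known and each changed gene had the same fold in every gate, so errors of gating were not tested. With 1 library per group no test was run. Low-depth classes are less precise: endothelial calls rest on 128 anti-Notch3 cells. UMI intervals and floors (3 UMIs) cover counting error only. Alternatives covered scaling, filters, the fold, gating, clustering and the comparator.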

Additional observations from a re-analysis of the deposited data

Results flagged for a closer look

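The antibody pair and the genotype pair moved in opposite directions in the cell mix. The fibroblast share was -16.1 percentage points under anti-Notch3 against isotype, and 21.6 points in the arthritic knockout against wild type. The myeloid share was 18.4 points and -24.9 points in the same comparisons. The 2 baselines, isotype and wild type, also differed, with fibroblast shares of 68.4% and 43.3% and myeloid shares of 19.6% and 42.5%. The opposite signs therefore depend on the baseline of each pair. In myeloid cells 3 genes were 2-fold apart with opposite signs. Fam26f had a log2 ratio of 2.92 for anti-Notch3 over isotype and -1.69 for knockout over wild type, Hspb1 had -2.61 and 1.62, and Sirpb1a had 3.03 and -3.71. With 1 library a side none of these differences between the pairs was tested.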

How the results depend on the processing

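Of the 76 recomputed values of the main counts and shares 57 held and 19 moved. A further 6871 values were recomputed for 993 single results. Each of these is a gene in a class, a gene in fibroblasts at the fixed mix, or a class or gate share, so a gene can count more than once. Of the 6871 values 5543 held, 1315 moved and 13, each 2-fold or more as reported, changed sign. With no filter beyond 1 UMI, higher and lower calls under anti-Notch3 were 2233 and 1770 in fibroblasts, 1037 and 2161 in myeloid and 2302 and 1437 in endothelial cells; at 1.5-fold they were 1311 and 1537, 725 and 1578, and 1033 and 1413. Myeloid genes higher under anti-Notch3 numbered 393 with median-of-ratios scaling and 557 with arthritic wild type in place of isotype, a comparator chosen after seeing the data. Fibroblast genes lower at a fixed mix of gates numbered 1001 with subclusters in place of gates. Of the gate shares, the H19-Cthrc1 difference, -10.8 points, was -13.92 with gating at full depth, -13.23 thinned to 3000 UMIs, -16.68 with at least 1 panel gene and -2.229 with at least 3. The cause of these shifts was not tested beyond what each setting changes. Of ratios that were at least 2-fold, signs changed for Serping1 in myeloid cells (0.21 at Leiden resolution 2); for Ctsk in endothelial cells (0.0601) and Ogn in endothelial cells (0.49) without two-class cells; for C3 (-0.94), Nov (-2.54) and Ube2c in endothelial cells (1.32) without the 5 top cells, also chosen after seeing the data, where no UMI was left under anti-Notch3 (for Ube2c on either side), so these rest on the pseudocount and show no direction; for Il1b (-0.45) and Tagln in fibroblast cells at a fixed mix (-0.0594) with at least 3 panel genes; and with subclusters for Birc5 (0.023), Cadm1 (-0.71), Ifi44 (2.61), Sult1e1 (-0.55) and Timp1 in fibroblast cells at a fixed mix (0.0065). Ratios under 2-fold that crossed 0 are among those moved, such as Mmp13 (1.08 with subclusters) and Postn (-0.52 with anti-Notch3 gate weights, -0.54 with at least 3 panel genes). No paired analysis was possible because each group is 1 library. The small number of cells limited mural and endothelial values.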
